A study of Arabidopsis thaliana with 21 samples.

Results

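The 10 genes described here encode small heat shock proteins of Arabidopsis thaliana that work in different compartments of the cell. They were chosen by name for the compartment of their product, with earlier results of these data known, and they are 10 of the 32833 genes of the count table. HSP22 (AT4G10250) encodes the protein of the endoplasmic reticulum, HSP21 (AT4G27670) the plastid protein, and HSP23.6 (AT4G25200), HSP23.5 (AT5G51440) and HSP26.5 (AT1G52560) the mitochondrial proteins. The cytosol is represented by HSP17.4 (AT3G46230) and HSP18.2 (AT5G59720) of class I and by HSP17.6II (AT5G12020) and HSP17.6A (AT5G12030) of class II, and the peroxisome by HSP15.7 (AT5G37670). The compartments come from the gene annotation and from textbook knowledge, and RNA counts do not measure where a protein is.

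The counts came from 21 RNA-seq libraries of 7-day-old seedlings, 3 in each of 7 groups, and the study asked how acetylation of a lysine of HY5 bears on its function. The hy5 mutant and the wild type (WT) were sampled after 2 h of high light and in growth light, at photon fluxes per m2 and s of 500 and 100 µmol. Of the HY5-GFP lines, all sampled in growth light, K87Q (35S:HY5K87Q-GFP/hy5-1) carries glutamine at the lysine, K87R (35S:HY5K87R-GFP/hy5-2) arginine, and K87K (35S:HY5K87K-GFP/hy5-1) the original lysine. The 35S promoter drives the transgene in nearly all cells at all times, line and substitution change together, and K87R is also in a different hy5 allele from K87Q and K87K. The allele of the samples called hy5 and the number of independent lines are not given in the sources used here, and no line was sampled in high light. The labels call the replicates biological and do not say how they were grown, and p-values measure the spread between these libraries.

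Small heat shock proteins are chaperones that share an alpha-crystallin domain and form oligomers. They bind unfolding proteins without using ATP and hold them in a form that the ATP-driven Hsp70 and Hsp101 machines can refold. In plants the family has members for the cytosol and for most organelles, and their genes are nearly silent in unstressed vegetative tissue and are induced by heat through heat stress transcription factors (HSFs), which bind heat shock elements, inverted repeats of the unit nGAAn. HY5 is a bZIP transcription factor that promotes photomorphogenesis and binds the G-box and other elements with the same core.

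The promoters of the members differed in how many such elements they held. All 10 genes had the same chromosome, start, end and strand in the files and in TAIR10.1, from which the sequences were read. Heat shock elements were searched as pairs of inverted units, GAANNTTC or TTCNNGAA, where N is any base. Both forms read the same on either strand, and matches that overlap were counted each. In the 250 bases before the annotated start, 6 of the 10 members held at least 1 element, against 1 of 8 other genes of the family and 16.1% of 27443 protein-coding promoters of the same length. The plot of promoter elements shows their positions.

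These 6 windows of 100 bases before the start, 5′ to 3′ on the strand of the gene, show the member with most elements, 4 members with 1 element each from 3 compartments, and a strongly expressed member with none. Capitals mark the bases of the elements.
HSP17.4, chr3:16984868-16984967, minus strand: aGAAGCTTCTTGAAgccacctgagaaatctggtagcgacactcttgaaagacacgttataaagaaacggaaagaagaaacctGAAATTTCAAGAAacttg
HSP21, chr4:13819972-13820071, minus strand: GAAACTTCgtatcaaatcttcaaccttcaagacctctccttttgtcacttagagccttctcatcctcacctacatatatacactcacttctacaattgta
HSP23.5, chr5:20891063-20891162, plus strand: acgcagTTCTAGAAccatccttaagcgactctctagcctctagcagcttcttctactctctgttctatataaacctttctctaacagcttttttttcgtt
HSP26.5, chr1:19575867-19575966, minus strand: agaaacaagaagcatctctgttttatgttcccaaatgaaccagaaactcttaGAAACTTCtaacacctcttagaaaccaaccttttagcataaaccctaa
HSP17.6A, chr5:3884839-3884938, minus strand: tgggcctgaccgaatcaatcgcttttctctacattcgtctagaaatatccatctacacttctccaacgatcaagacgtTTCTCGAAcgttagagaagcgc
HSP18.2, chr5:24062223-24062322, plus strand: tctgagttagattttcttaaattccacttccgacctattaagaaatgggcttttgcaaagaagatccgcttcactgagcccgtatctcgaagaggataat

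HSP17.4 held 4 elements in 2 overlapping pairs, which began 99, 94, 18 and 13 bases before its start. HSP21, HSP23.5, HSP26.5 and HSP17.6A held 1 each, at 100, 94, 48 and 22 bases before the start, and HSP15.7 held 1 at 158 bases, outside the window of 100. In HSP22, HSP23.6, HSP18.2 and HSP17.6II these letters were not found in the 250 bases. Within 100 bases, 5 of 10 members and 6.41% of promoters held a pair of units. A stricter search for 3 alternating units (a pair as above with the next unit in the same spacing) found 1 of 10 members, HSP17.4 with 2 matches, and 0.386% of promoters. The G-box (CACGTG) was found in 1 of 10 members, HSP17.4, at 216 bases before its start, and in 6.49% of promoters. Its core (ACGT, which each G-box also contains) was found in 4 of 10 members (HSP22, HSP23.6, HSP17.4 and HSP17.6A) and in 44.1% of promoters. A match of letters is not a measured binding site.

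**Figure D1:**
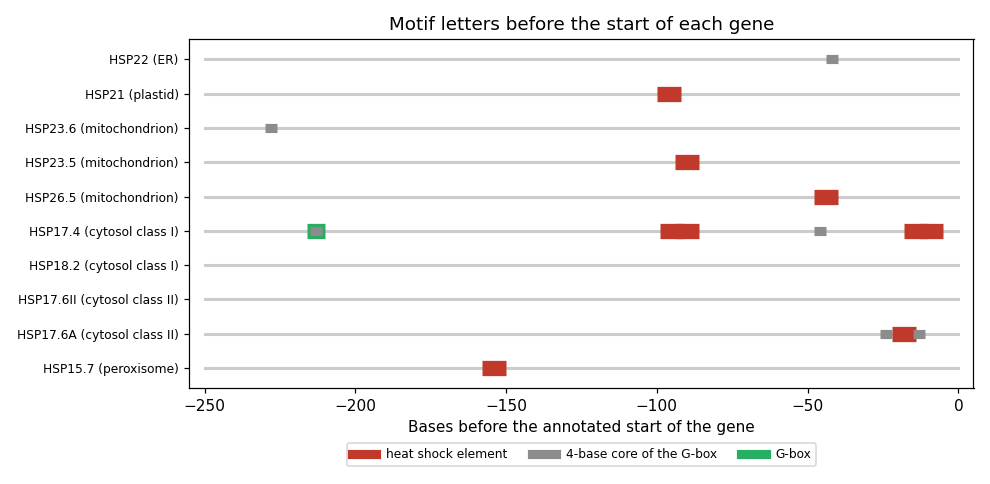
Positions of heat shock elements, of the G-box and of its core in the 250 bases before the annotated start of each of the 10 genes (horizontal axis, bases from the start; 1 line a gene). Heat shock elements lie on 6 of the 10 lines, HSP17.4 has 4 of them and the only G-box of the 10, and HSP18.2 and HSP17.6II have neither.

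In the genome HSP17.6II (chromosome 5, 3882231 to 3883111) and HSP17.6A (chromosome 5, 3883957 to 3884838) lie in tandem on the minus strand with 845 bases between them. Their coding sequences are 86.8% identical, and the longest run of identical bases they share is 33. HSP17.4 shares 85.6% of its coding bases with HSP17.6C, a class I gene that is no member, in runs of up to 29 bases. No member shares a longer run than 33 bases with any other of the 18 family genes examined, but how reads that match several genes were counted is not stated, so values of these near copies are uncertain to that extent. HSP17.4 (chromosome 3, 16984118 to 16984867) is also overlapped by AT3G46220 on the opposite strand. The strand setting of the counting is not stated, and without strand their reads cannot be told apart. In high light AT3G46220 gave 136, 179 and 882 counts in the hy5 libraries and 25, 34 and 1940 in those of WT. HSP17.4 gave 20343 counts or fewer in any hy5 library, with 484 in replicate 3, and 5079 to 14682 in WT. The other members have no such overlap except that a noncoding gene with 0 counts lies over HSP17.4 as well.

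Library depth ran from 7283290 to 22101539 counts, with a median of 14815169. HY5 itself, measured as a check of the labels, had 0 to 0.496 CPM in hy5 and 41.9 to 106 in WT in high light, and in growth light 227 to 263 in K87Q, 296 to 409 in K87R, 212 to 356 in K87K, 0.0639 to 1.24 in hy5 and 7.01 to 9.86 in WT. CPM are counts relative to the size of the library, here scaled by the trimmed mean of M-values (TMM), which sets most genes equal between libraries. The high-light replicate 3 libraries of hy5 and WT stood apart from replicates 1 and 2. Spearman correlations across genes between replicates were 0.777 to 0.936 in hy5 and 0.808 to 0.956 in WT in high light, against 0.974 to 0.989 in the growth-light groups. Plastid genes held 7.30% of the counts of hy5 replicate 3 and 6.52% of those of WT replicate 3, and 4.15% or less elsewhere. Results that rest on these libraries are given with and without them, an alternative chosen with their behaviour known.

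In high light the 10 genes took up 2.08%, 3.76% and 2.81% of all counts in hy5 and 1.86%, 1.59% and 1.81% in WT, and in growth light 0.00057% to 0.0042% in all 5 groups. All 10 rose in both genotypes. In bulk seedlings more RNA per cell and more cells with that RNA cannot be told apart. The endoplasmic reticulum and plastid genes had almost no reads in growth light. HSP22 had 2234, 2716 and 5201 CPM in hy5 in high light, against 0, 0 and 2 counts in growth light, and in WT 2180, 1701 and 3272 CPM against 0 counts in all 3 libraries. HSP21, which guards photosynthetic proteins in the plastid, had 1039, 765 and 843 CPM in hy5 in high light against 9, 1 and 4 counts in growth light. In WT it had 820, 642 and 1536 CPM against 0 counts. No high-light library of either gene came near a growth-light one.

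The 3 mitochondrial genes started and ended at different levels. HSP23.6 had 8250, 17542 and 5819 CPM in hy5 and 13033, 6182 and 2515 CPM in WT in high light, and in growth light at most 0.266 CPM in hy5 and 0.616 CPM in WT. HSP23.5 had 1593, 2696 and 2001 CPM in hy5 and 1524, 647 and 981 CPM in WT in high light. Its growth-light level was the highest of the 10 genes, 5.50, 4.34 and 3.98 CPM in hy5 and 3.81, 4.54 and 4.87 CPM in WT. HSP26.5 had 387, 492 and 291 CPM in hy5 and 157, 78.8 and 829 CPM in WT in high light, against 5 counts over all 3 libraries in hy5 and 2 in WT in growth light. High and growth light did not overlap for any of them.

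Among the cytosolic genes, HSP18.2 had the highest level. It had 6415, 13456 and 520 CPM in hy5 and 7132, 6244 and 2516 CPM in WT in high light, and 0.740 to 2.03 CPM in hy5 and WT in growth light. HSP17.4, of the same class I, had 1043, 2074 and 20.0 CPM in hy5 and 1226, 854 and 225 CPM in WT, against 8 counts in hy5 and 4 in WT over the growth-light libraries. In each genotype replicate 3 was the lowest for both class I genes. The class II genes were more even: HSP17.6II had 2460, 3507 and 2858 CPM in hy5 and 2359, 1529 and 1595 CPM in WT in high light, and 0.531 to 1.67 CPM in hy5 and WT in growth light. HSP17.6A had 3099, 9656 and 2221 CPM in hy5 and 2460, 1314 and 1950 CPM in WT in high light. Its growth-light values were 0.128, 0.177 and 0.354 CPM in hy5 and 1.45, 0.717 and 1.54 CPM in WT, without overlap. The peroxisomal HSP15.7 had 530, 1236 and 600 CPM in hy5 and 181, 76.2 and 729 CPM in WT in high light. In growth light it had at most 0.558 CPM in hy5 and WT.

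**Figure D2:**
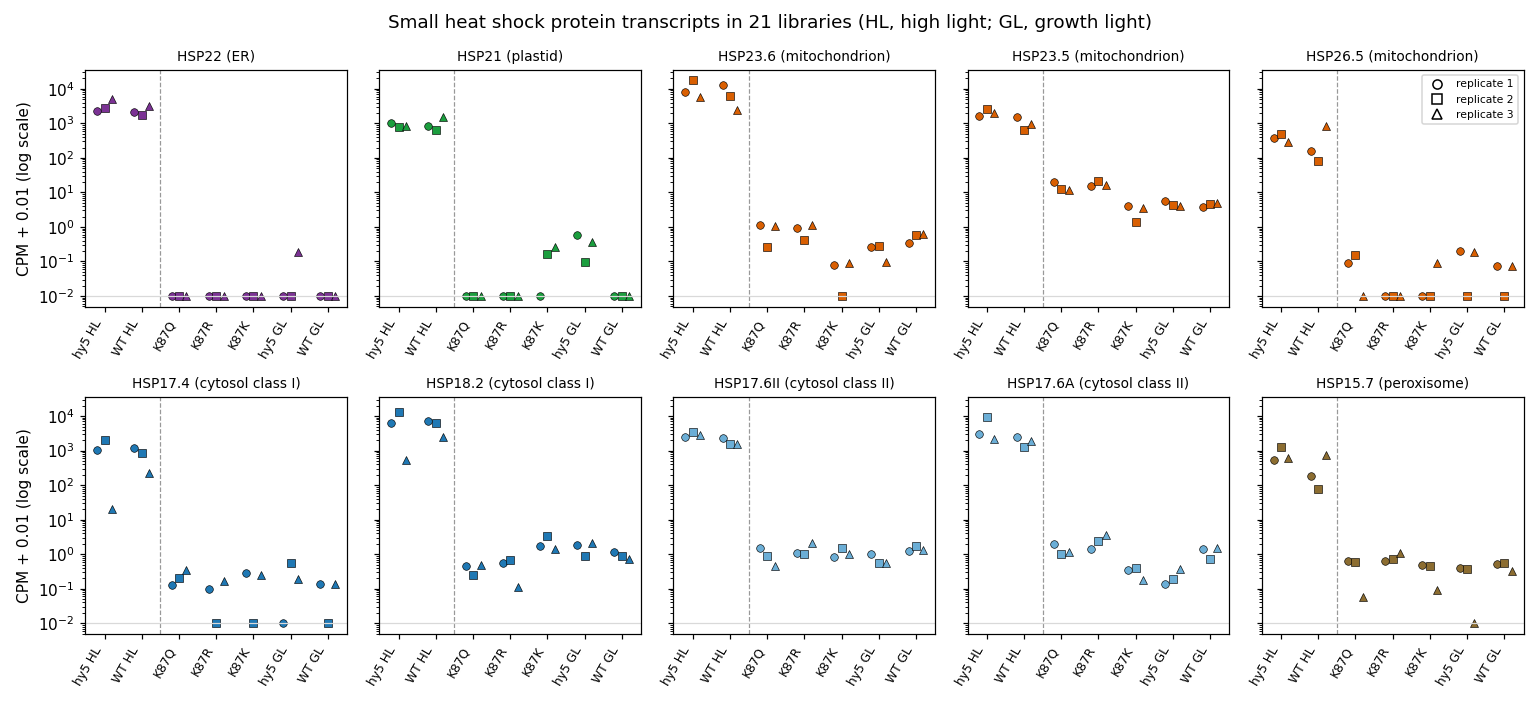
Level of each of the 10 genes in every library (vertical axis, CPM + 0.01 on a log scale, so that a count of 0 lies on the grey line; 1 panel a gene, 1 point a library, shapes the replicates, high light left of growth light). High-light points lie above all growth-light points in every panel, and replicate 3 of hy5 is far below replicates 1 and 2 for HSP17.4 and HSP18.2.

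The light response was tested gene by gene with edgeR's quasi-likelihood test and Benjamini-Hochberg adjustment over all genes tested. A gene was called at an adjusted p under 0.05, and log2 fold changes are given ± SE. In hy5 10 of 10 members were called higher, against 13.2% of all 19348 genes. The 3 high-light libraries lay outside the 3 growth-light ones for 10 of 10 members, against 48% of genes. In WT it was again 10 of 10, against 8.68% of genes called higher, and 10 of 10 without overlap, against 42.3% of genes. Genes nearly silent in growth light, namely HSP22, HSP21, HSP23.6, HSP26.5, HSP17.4 and HSP15.7, passed the filter of this fit only through their high-light counts. For these the direction was fixed in advance, and the shares of all genes do not allow for that. The members' median log2 fold change was 12.07 in hy5, against 0.03 over all genes, and 12.60 in WT, against 0.05. With the count ratios or bounds below in place of fitted values the WT median was 12.71 and the hy5 median did not move.

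By role, HSP22 was higher in hy5 in high light by a ratio of 72481 (95% counting interval 20064.5 to 598503) and in WT at least 38302-fold, with the 0 counts of WT set to a floor of 3 counts over the group. HSP21 rose by log2 11.28 ± 0.84 in hy5 (edgeR, adjusted p = 4.7e-05) and was at least 16649-fold higher in WT. Of the mitochondrial genes, HSP23.6 rose by 15.61 ± 1.26 in hy5 (edgeR, adjusted p = 3.2e-05) and 13.78 ± 1.18 in WT (edgeR, adjusted p = 6.8e-05). HSP23.5, which had reads to begin with, rose least of the 10 in both, by 8.84 ± 0.62 in hy5 and 7.89 ± 0.60 in WT. HSP26.5 rose by 11.50 ± 1.21 in hy5, and in WT the ratio was 10426 (counting interval 2886 to 86093). Floors and counting intervals cover counting error only.

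In the cytosol, HSP17.4 rose by log2 12.18 ± 1.85 in hy5 (edgeR, adjusted p = 0.00091) and 12.93 ± 1.93 in WT (edgeR, adjusted p = 0.0013). HSP18.2 rose by 12.10 ± 1.38 and 12.49 ± 1.40, HSP17.6II by 12.03 ± 0.71 and 10.34 ± 0.67, and HSP17.6A by 14.48 ± 1.10 and 10.58 ± 0.95, in hy5 and in WT in each case. The peroxisomal HSP15.7 rose by 11.58 ± 1.23 in hy5 and 9.47 ± 1.13 in WT. Of these SEs the widest were those of HSP17.4 and the narrowest those of HSP23.5. Without the high-light replicate 3 libraries all 10 were still called in both genotypes, with HSP15.7 at 8.10 in WT and HSP17.4 at 12.78 in hy5. Leaving out any other 1 library also changed no call. Of the fitted values given above, HSP17.4 in hy5 moved most, to between 11.18 without high-light replicate 2 and 13.60 without growth-light replicate 2. The ratio of HSP22 in hy5 rests on growth-light replicate 3, which holds its only 2 counts.

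To compare levels between genes, CPM were divided by the length of the counted gene model in kb. HSP23.6 ranked first in high light in both genotypes, with 10054 ± 5904 CPM per kb in hy5 and 6912 ± 5094 in WT (SD, n = 3 each). HSP18.2 ranked second, with 6950 ± 6622 CPM per kb in hy5 and 5417 ± 2505 in WT. HSP26.5 ranked last, with 374 ± 96.3 CPM per kb in hy5 and 340 ± 395 in WT. In hy5 HSP17.6A, HSP17.6II, HSP22, HSP23.5, HSP17.4, HSP15.7 and HSP21 followed HSP18.2 in that order, and in WT HSP22, HSP17.6A, HSP17.6II, HSP17.4, HSP21, HSP23.5 and HSP15.7. The order is loose, since 8 of 9 neighbours overlapped in their library values in each genotype. The exceptions were HSP21 above HSP26.5 in hy5 and HSP17.6II above HSP17.4 in WT.

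**Figure D3:**
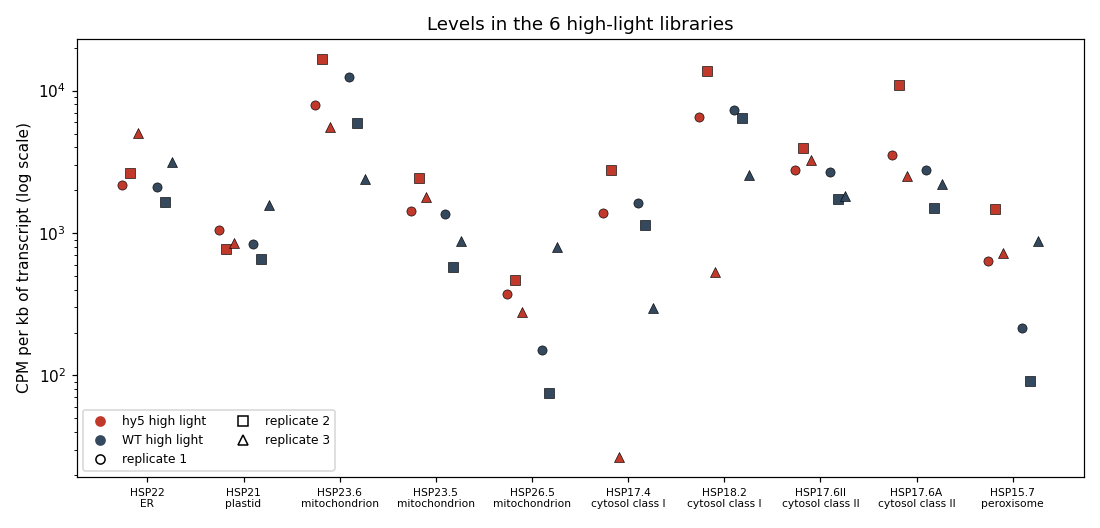
Level per length of the 10 genes in the 6 high-light libraries (vertical axis, CPM per kb on a log scale; 1 point a library, shapes the replicates, hy5 left of WT). HSP23.6 has the highest mean and HSP26.5 the lowest in both genotypes, replicate 3 of hy5 lies lowest for HSP17.4 and HSP18.2, and the libraries of most genes that neighbour each other in rank overlap.

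The summed level per length was then split by compartment. Mitochondrial genes held the largest share in hy5, 34.8%, 35.1% and 37.1% in replicates 1 to 3, and 44.3%, 33.3% and 24.6% in WT. Class I cytosolic genes held 28.6%, 29.5% and 2.72% in hy5 and 28.3%, 38.2% and 17.3% in WT. Class II genes held 22.7%, 26.7% and 28.0% in hy5 and 17.3%, 16.4% and 24.3% in WT, so that the class that made up the smaller cytosolic share in replicates 1 and 2 was the larger one in both replicate 3 libraries. HSP22 alone made 7.77%, 4.69% and 24.5% in hy5 and 6.69%, 8.35% and 19.1% in WT. HSP21 made 3.81%, 1.39% and 4.17% in hy5 and 2.65%, 3.32% and 9.43% in WT, and HSP15.7 2.29%, 2.65% and 3.50% in hy5 and 0.688%, 0.464% and 5.28% in WT.

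**Figure D4:**
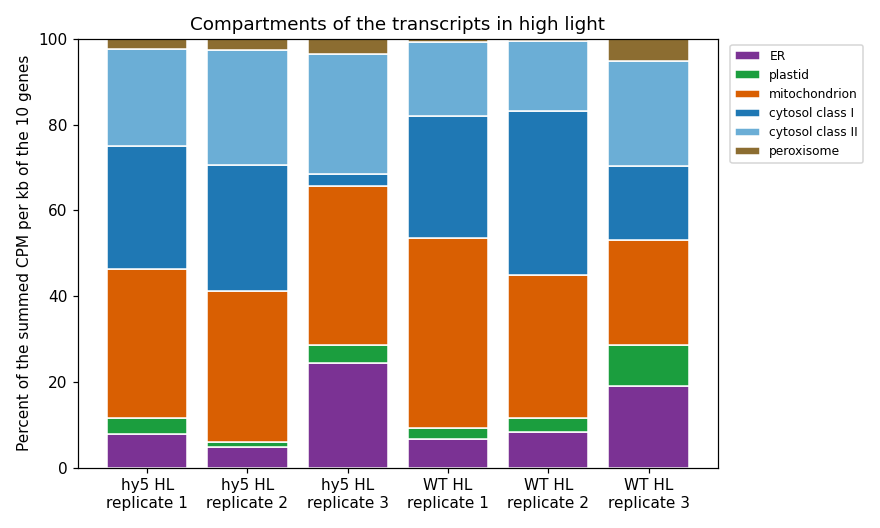
Share of the members' summed CPM per kb held by each compartment, with the cytosol split into its 2 classes (vertical axis, percent, with 1 bar a high-light library and hy5 left of WT). Class I cytosolic genes hold 28.3% to 38.2% in replicates 1 and 2 and 2.72% (hy5) and 17.3% (WT) in replicate 3, where HSP22 holds 24.5% and 19.1%.

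Gene by gene, the replicate 3 libraries moved members both ways. In hy5 replicate 3 HSP17.4 was 77.9-fold and HSP18.2 19.1-fold below the mean of replicates 1 and 2, HSP17.6A 2.87-fold and HSP23.6 2.22-fold below, and HSP22 2.10-fold above. In WT replicate 3 HSP17.4 was 4.63-fold, HSP23.6 3.82-fold and HSP18.2 2.66-fold below, and HSP26.5 7.02-fold, HSP15.7 5.68-fold and HSP21 2.10-fold above. Scaled by library totals alone, HSP17.4 and HSP18.2 were still 40.6-fold and 9.95-fold below in hy5 and 2.86-fold and 1.67-fold below in WT, and HSP26.5 and HSP15.7 11.7-fold and 9.55-fold above in WT. The direction was not fixed by the data for every member: HSP21, HSP23.5, HSP26.5, HSP17.6II and HSP15.7 in hy5 and HSP23.5 and HSP17.6II in WT lay 1.26-fold to 1.82-fold above on that scale and below with TMM. Replicate 3 fell outside the range of replicates 1 and 2 for 6 of 10 members in hy5 and 7 of 10 in WT, against 82.8% and 84.4% of all 17846 genes, so such departures were no more frequent among the members than elsewhere.

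The genotypes were next compared within high light, which asks whether the level after the light step depends on HY5. DESeq2 called 0 of 10 members. By edgeR 0 of 10 were called, 0 at an unadjusted p under 0.05, and 1 gene of 17846 (0.0056%) was called at all. Every adjusted p of a member was 1. The difference hy5 minus WT was log2 0.53 ± 0.87 for HSP22 (95% interval -1.17 to 2.24), 1.05 ± 0.79 for HSP23.5 (-0.51 to 2.60), 1.45 ± 0.98 for HSP17.6A (-0.47 to 3.37) and 1.301 ± 0.92 for HSP15.7 (-0.50 to 3.10). The intervals, set by the spread between libraries, reach several-fold differences. They use a normal quantile, and intervals from the F test would be wider. For HSP23.5 and HSP17.6II (0.73 ± 0.81) all 3 hy5 libraries lay above all 3 WT libraries, 2 of 10 members, against 7.39% of genes without overlap. Between like-numbered libraries, which no label calls pairs, hy5 lay above WT in all 3 for HSP22 and HSP17.6A too. That made 4 of 10 members in all, against 13.3% of genes.

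Without the replicate 3 libraries, which leaves 2 against 2, HSP15.7 (log2 2.87, edgeR, adjusted p = 0.013) and HSP26.5 (1.97, edgeR, adjusted p = 0.027) were called higher in hy5. They were among 461 genes called in that fit, where the fit with those libraries called 1 of 17846. Over all libraries HSP26.5 differed by 0.17 ± 0.88, and its sign turned with single libraries. In replicates 1 and 2 HSP26.5 had 387 and 492 CPM in hy5 against 157 and 78.8 CPM in WT, and in replicate 3 it had 291 CPM in hy5 against 829 CPM in WT. HSP15.7 had 530 and 1236 CPM in hy5 against 181 and 76.2 CPM in WT in replicates 1 and 2, and 600 CPM in hy5 against 729 CPM in WT in replicate 3. Leaf marker genes also spread in high light, with summed levels of 1063 to 24477 CPM in hy5 and 3372 to 34233 CPM in WT, and root markers with 0.992 to 49.96 CPM in hy5 and 4.07 to 218 CPM in WT. In growth light the leaf markers summed to 47426 to 51563 CPM in hy5 and 40227 to 44421 CPM in WT, and the root markers to 97.4 to 117 CPM in hy5 and 79.4 to 99.4 CPM in WT. For hy5, high and growth light did not overlap for 3 of 3 leaf and 3 of 3 root markers, against 48% of all genes, and 1 root marker was called lower in high light. For WT they did not overlap for 2 of 3 leaf and 1 of 3 root markers, against 42.3% of all genes, and no such marker was called. Their part in the members' results was not tested.

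Whether the size of the light response differed was tested by the interaction, the log2 response of hy5 minus that of WT. By edgeR 0 of 10 members were called and 1 of 19348 genes (0.00517%). At an unadjusted p under 0.05 there were 3 members, and DESeq2 called 1. The shares of all genes for these counts are not given here, so they have no background beside them. HSP17.6A, the member called by DESeq2, differed by 3.91 ± 1.02 (edgeR, adjusted p = 0.73; DESeq2, adjusted p = 0.041). Its high-light libraries overlapped between the genotypes, while its growth-light libraries were all lower in hy5. HSP17.6II had 1.69 ± 0.67 (edgeR, adjusted p = 0.75), HSP15.7 2.11 ± 1.28, HSP23.6 1.83 ± 1.14 and HSP23.5 0.95 ± 0.63. HSP21, with an unadjusted p of 0.0018, rests on WT growth-light libraries at 0 counts and is given no size. Without the high-light replicate 3 libraries 4 of 10 members were among 3452 genes called, where the fit with those libraries called 1 of 19348. The 4 members were HSP17.6A (4.29, edgeR, adjusted p = 0.0075), HSP17.6II (1.58, edgeR, adjusted p = 0.032) and HSP15.7 (3.59, edgeR, adjusted p = 0.027), all higher, and HSP21, lower.

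In growth light all members were low, and the summed level of the 10 was 15.2 to 25.3 CPM in K87Q, 20.5 to 26.7 in K87R, 6.79 to 7.66 in K87K, 7.17 to 9.85 in hy5 and 8.68 to 9.55 in WT. The K87Q and K87R libraries lay above all others. In K87Q and K87R most of that sum was HSP23.5, which ranked first per length in each of the 5 groups, with 13.0 CPM per kb in K87Q, 15.9 in K87R, 2.65 in K87K, 4.13 in hy5 and 3.95 in WT. Of the members, 6 of 10 had enough counts to be tested: HSP23.6, HSP23.5, HSP18.2, HSP17.6II, HSP17.6A and HSP15.7. Of the other 4, HSP22 had 0 counts except 2 in hy5 replicate 3. HSP21 had 0 in K87Q, K87R and WT, 5 in K87K and 14 in hy5, HSP26.5 had at most 5 in any group, and HSP17.4 had 14 in K87Q, 4 in K87R, 7 in K87K, 8 in hy5 and 4 in WT.

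Between hy5 and WT in growth light, HSP17.6A was the one member called, at log2 -2.50 ± 0.71 (edgeR, adjusted p = 0.0095), or 1 of 6 tested, against 11.3% of 19679 genes called lower. All 3 hy5 libraries (0.128, 0.177 and 0.354 CPM) lay below all 3 WT libraries (1.45, 0.717 and 1.54 CPM). The call was lost without hy5 replicate 1 (edgeR, adjusted p = 0.056) and when all 21 libraries shared 1 fit (edgeR, adjusted p = 0.16). Its tandem neighbour HSP17.6II had 1.02, 0.531 and 0.531 CPM in hy5 against 1.25, 1.67 and 1.29 CPM in WT, also without overlap, and was not called (-0.98 ± 0.63). HSP23.6 was lower without overlap as well, with 0.256, 0.266 and 0.0884 CPM in hy5 against 0.329, 0.558 and 0.616 CPM in WT, and was not called. HSP21 lay the other way, with 9, 1 and 4 counts in hy5 against 0 in WT, at least 5.37-fold higher in hy5. Together 4 of 10 members did not overlap between the genotypes, against 45% of genes. HSP18.2 (0.79 ± 0.64) and HSP15.7 (-0.84 ± 1.00) were not called either.

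In the lines the mitochondrial HSP23.5 stood highest. It had 19.4, 12.4 and 11.7 CPM in K87Q and 15.8, 21.4 and 15.9 CPM in K87R, against 3.97, 1.38 and 3.52 CPM in K87K, 5.50, 4.34 and 3.98 CPM in hy5 and 3.81, 4.54 and 4.87 CPM in WT. No K87Q or K87R library overlapped with any of the other 3 groups. Against hy5, HSP23.5 rose by log2 1.65 ± 0.26 in K87Q (edgeR, adjusted p = 3.5e-06) and 1.93 ± 0.26 in K87R (edgeR, adjusted p = 2e-07). Against K87K it rose by 2.29 ± 0.27 in K87Q (edgeR, adjusted p = 2e-08) and 2.58 ± 0.28 in K87R (edgeR, adjusted p = 2e-09), and against WT by 1.72 ± 0.26 in K87Q and 2.01 ± 0.26 in K87R. The comparisons share their libraries, so they are not independent of each other.

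HSP17.6A had 1.96, 1.03 and 1.18 CPM in K87Q and 1.43, 2.44 and 3.59 CPM in K87R, against 0.342, 0.383 and 0.164 CPM in K87K. Neither line overlapped with K87K or hy5, which overlapped with each other, and WT overlapped with both lines. Against K87K HSP17.6A rose by log2 2.19 ± 0.66 in K87Q (edgeR, adjusted p = 0.0059) and 3.04 ± 0.66 in K87R (edgeR, adjusted p = 0.00025), and against hy5 by 2.67 ± 0.70 in K87Q (edgeR, adjusted p = 0.0018) and 3.51 ± 0.70 in K87R (edgeR, adjusted p = 6.5e-05).

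HSP23.6 had 1.14, 0.244 and 1.03 CPM in K87Q and 0.894, 0.414 and 1.14 CPM in K87R, against 0.0684, 0 and 0.0818 CPM in K87K. From 55 and 41 counts in K87Q and K87R and 2 in K87K, it was higher by a ratio of 16.54 in K87Q (counting interval 4.37 to 140; edgeR, adjusted p = 0.0043) and 15.68 in K87R (4.07 to 134; edgeR, adjusted p = 0.0047). Against hy5 it did not pass (1.93 ± 0.90 in K87Q, edgeR, adjusted p = 0.071, and 1.93 ± 0.91 in K87R, edgeR, adjusted p = 0.07). HSP23.6 entered the growth-light fit past the filter on low counts only through K87Q and K87R libraries. Its direction against K87K and hy5 was thus fixed in advance, and these p-values do not allow for that.

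The class I gene HSP18.2 went the other way. It had 0.432, 0.244 and 0.490 CPM in K87Q and 0.537, 0.690 and 0.104 CPM in K87R, against 1.71, 3.37 and 1.39 CPM in K87K and 1.79, 0.886 and 2.03 CPM in hy5. All libraries of both lines lay below all K87K and hy5 libraries. It fell by 2.45 on the log2 scale against K87K in K87Q (SE 0.67, edgeR, adjusted p = 0.0025) and by 2.27 in K87R (SE 0.67, edgeR, adjusted p = 0.0054). Both calls were lost when all 21 libraries shared 1 fit (edgeR, adjusted p = 0.06 in K87Q and 0.085 in K87R), and that of K87R without K87K replicate 2 (edgeR, adjusted p = 0.051). Against hy5 it fell by 1.99 in K87Q (SE 0.67, edgeR, adjusted p = 0.013) and by 1.82 in K87R (SE 0.68, edgeR, adjusted p = 0.022). These calls were lost with library totals in place of TMM (edgeR, adjusted p = 0.075 in K87Q and 0.25 in K87R) and in 1 fit of all 21 libraries (edgeR, adjusted p = 0.12 in K87Q and 0.14 in K87R). That of K87Q was also lost without hy5 replicate 3 (edgeR, adjusted p = 0.054), and that of K87R without hy5 replicate 1, hy5 replicate 3 or K87R replicate 3 (edgeR, adjusted p = 0.068, 0.081 and 0.11). HSP15.7 had 0.629, 0.586 and 0.0490 CPM in K87Q and 0.626, 0.736 and 1.09 CPM in K87R, against 0.479, 0.460 and 0.0818 CPM in K87K, and was not called against K87K in K87R (1.24 ± 0.92) nor against hy5 (0.73 ± 0.97 in K87Q, 1.67 ± 0.96 in K87R).

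**Figure D5:**
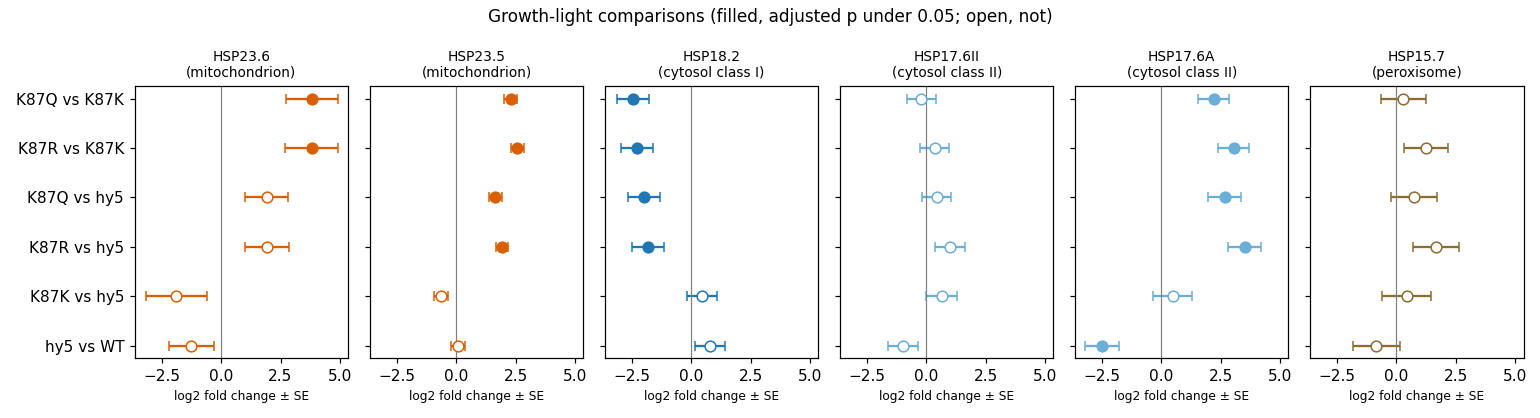
Log2 fold changes in growth light with TMM scaling (horizontal axis; bars ± SE, filled points called and open points not), 1 panel for each of the 6 tested genes and 1 line a comparison. HSP23.5 and HSP17.6A lie right of 0 and HSP18.2 left of 0 in K87Q and K87R against K87K and hy5, and for HSP23.6 the fitted values against K87K rest on 2 counts there.

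Read as counts, these calls stand against a background in which many genes differed. Of the 6 members tested, 3 were called in K87Q against hy5 (53.1% of genes) and 3 in K87R against hy5 (57.4%). Against K87K it was 4 in K87Q (50.9% of genes) and 4 in K87R (50.5%), and against WT 1 in K87Q (52%) and 1 in K87R (49.4%). These shares are not far from the background or below it, so the counts say nothing particular about the members. The split depended on scaling: library totals put the median log2 difference of all genes at 1.05 in K87R against hy5, where TMM put it at 0.10, and gave 5 members higher and 0 lower in K87R against hy5 in place of 2 higher and 1 lower. Relative to that shift HSP23.5, at 2.90 on the log2 scale with library totals, was still above the median gene, and HSP18.2, at -0.86, still below it. The share of all genes called with library totals is not given here, so the 5 calls have no background beside them.

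K87Q and K87R, which differ in the substitution, the line and the allele, were compared with each other. By edgeR 0 of 6 members were called, 0 at an unadjusted p under 0.05 and 0 by DESeq2, against 27.3% of genes called by edgeR. K87Q minus K87R was log2 -0.29 ± 0.24 for HSP23.5 (95% interval -0.76 to 0.18), -0.84 ± 0.55 for HSP17.6A (-1.92 to 0.24) and -0.94 ± 0.86 for HSP15.7. The intervals do not show that the lines were alike, and with library totals HSP23.5 was called lower in K87Q (-0.60, edgeR, adjusted p = 0.047). K87K was set against hy5, and by edgeR 0 of 6 were called, 1 at an unadjusted p under 0.05 and 0 by DESeq2, against 27.9% of genes called by edgeR. HSP23.5 was at -0.64 ± 0.29 (edgeR, adjusted p = 0.10) and was called without K87K replicate 1 (-0.93, edgeR, adjusted p = 0.036), while HSP17.6A (0.47 ± 0.81) and HSP17.6II (0.64 ± 0.64) were not called. Against WT, where 25.6% of genes were called, K87K was lower for HSP23.6, by a ratio of 9.97 (2.45 to 87.5, edgeR, adjusted p = 0.043), and for HSP17.6A (-2.03 ± 0.67, edgeR, adjusted p = 0.023). Neither call is firm. That of HSP23.6 was lost on leaving out any 1 of the 6 libraries (edgeR, adjusted p = 0.053 to 0.14), with no filter on low counts (edgeR, adjusted p = 0.06) and in 1 fit of all 21 libraries (edgeR, adjusted p = 0.19). That of HSP17.6A was lost without K87K replicate 3, WT replicate 1 or WT replicate 3 (edgeR, adjusted p = 0.067 to 0.087) and in 1 fit of all 21 libraries (edgeR, adjusted p = 0.16). HSP23.5 (-0.57 ± 0.29) and HSP18.2 (1.24 ± 0.64) did not pass.

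Marker genes of other tissues moved with the K87Q and K87R results. Seed markers summed to 25.5 to 46.1 CPM in K87Q and 7.33 to 22.8 in K87R, against 0 to 1.31 in K87K. Of the 10 seed markers 5 were tested, 5 higher in K87Q and 4 in K87R than in K87K. Of all genes 50.9% and 50.5% were called either way there. The seed markers summed to at most 0.973 CPM in hy5 and 0.797 in WT in growth light. The 5 tested thus passed the filter mainly through K87Q and K87R, and their direction was largely fixed in advance. The storage protein genes SESA1 and SESA4 had 0 counts in both lines. Leaf markers summed to 10417 to 12448 CPM in K87Q and 7293 to 8061 in K87R, against 26522 to 29908 in K87K, with 3 of 3 lower in each. Root markers summed to 12.5 to 23.61 CPM in K87Q and 17.0 to 19.3 in K87R, against 62.0 to 86.1 in K87K, also 3 of 3 lower. The growth-light sums of hy5 and WT given above exceed those of all 3 lines for leaf markers. In K87K against hy5 2 of 3 leaf and 2 of 3 root markers were lower, and in K87K against WT 2 of 3 leaf markers and 1 of 3 root markers. The part of these markers in the members' values was not tested.

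The rest of the family and the partner chaperones of each compartment were followed in the same fits. Of 8 other small heat shock protein genes 6 rose in high light in hy5 and 6 in WT, among them HSP17.6C of class I (log2 12.69 in hy5, 12.24 ± 1.38 in WT). HSP15.4 (-0.19 ± 0.44) and HSP21.7 (0.64 ± 0.73) were not called in WT. Of the partner chaperones of HSP22 in the endoplasmic reticulum 6 of 7 rose in hy5 and 5 of 7 in WT, such as the DnaJ protein gene ERDJ3A (8.90 in hy5, 7.49 ± 0.81 in WT). In the plastid 4 of 6 rose in each genotype, led by CLPB3, which resolves aggregates (6.63 in hy5, 4.74 ± 0.76 in WT). In mitochondria 5 of 5 rose in each, with HSP60 at 3.99 ± 0.47 in WT, and in the cytosol 5 of 6, with the disaggregase gene HSP101 at 11.59 in hy5 and 9.51 ± 1.16 in WT. The peroxisomal protease gene LON2 was not called. Of 12 heat stress regulators 10 rose in each genotype, with HSFA2, a factor that sustains the heat response, at 12.59 ± 1.12 in hy5 and 9.97 ± 1.02 in WT. The 2 not called were HSFA1A and HSFA1B, of the HSFA1 factors held ready without stress. The other HSFA1 genes of the list were among the 10 that rose.

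In K87Q and K87R against K87K genes of the same lists were called in both directions. HSP17.8, a class I gene that is no member, was higher by log2 4.19 ± 0.30 in K87Q (edgeR, adjusted p = 7.3e-14) and 4.01 ± 0.30 in K87R, and HSP17.6C, of the same class, was lower, -3.06 ± 0.75 in K87Q and -1.95 ± 0.72 in K87R. Of the 8 other family genes 5 were higher and 2 lower in each line, where 50.9% of all genes were called in K87Q and 50.5% in K87R. The cytosolic partners were higher for 6 of 6 in K87Q and 5 of 6 in K87R, with HSP101 at 3.59 ± 0.19 and 3.29 ± 0.19. HSFA2 had 26.98 ± 3.54 CPM in K87Q and 20.7 ± 4.17 in K87R, against 0.521 ± 0.556 in K87K (SD, n = 3 each), log2 differences of 5.72 ± 0.35 and 5.33 ± 0.36. Of 11 regulators tested 7 were higher in each line. Against WT 3 were higher and 2 lower in K87Q, and 4 higher and 1 lower in K87R. Of all genes 52% and 49.4% were called there. The 12 regulators summed to 43.0 to 50.4 CPM in K87K and 87.3 to 96.3 in WT. Their sums were 86.9 to 110 CPM in K87Q and 101 to 109 in K87R. Of the other family genes 2 were higher and 2 lower than WT in K87Q, and 4 higher and 1 lower in K87R. Against K87K again, 0 of 6 plastid chaperones were higher and 4 lower in K87Q, and 1 higher and 4 lower in K87R. In mitochondria 2 of 5 were higher and 1 lower in K87Q, and 4 higher and 1 lower in K87R, and in the endoplasmic reticulum 3 of 6 tested were higher in K87Q and 5 in K87R. LON2 was lower in both, at -1.06 ± 0.13 in K87Q and -1.76 ± 0.13 in K87R.

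Across all 21 libraries the gene whose level was most like the mean of the members was HSP70B, a cytosolic Hsp70, with a Pearson correlation of 0.9948 of log2 CPM. After it came CRL1 (0.9905), AtCDC48B (0.9904), AT1G66500 (0.9904), AT2G29500 of the same protein family (0.9902), AT4G04475 (0.9895), AT1G21940 (0.9882) and AT1G67360 (0.9874). Libraries of 1 group share their light and genotype, and the correlations are given as a description.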

How the data were processed

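The authors deposited raw counts per gene, made from poly-T selected mRNA. The tools named in the submitters' processing notes are HISAT2 2.0.5, fastp, featureCounts 1.5.0-p3, StringTie 1.3.3b and DESeq2 1.20.0, and the build is TAIR10. Neither their roles nor the strand setting is stated. Columns were joined to samples by name, with 0 left unmatched.

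Tests used edgeR 4.0.16 under R 4.3.3 (filterByExpr, TMM, robust quasi-likelihood F test) in 3 fits: 12 libraries for the light response (19348 genes), 6 for high light (17846) and 15 for growth light (19679), with 14 contrasts in all, with no adjustment over the contrasts. Adjusted p-values are Benjamini-Hochberg over all genes tested, from edgeR unless DESeq2 (1.42.0) is named. CPM use TMM over 21 libraries. Values after ± are SD (n = 3) for CPM and SE for log2 fold changes. The scripts were tested on simulated data.

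The members, lists and tests were chosen with earlier results of these data known. All members are named, and of each other list 2 to 4 genes with the smallest adjusted p or given as not passing. Motifs were searched with Biopython 1.88 in TAIR10.1, in which 32532 of the 32833 genes had the same position. Like-numbered libraries were read as pairs in high light, where their deviations from the group mean correlated at 0.159 to 0.483, and not elsewhere (-0.126 to 0.134). No label states a pairing. Replicate 3 stood apart in both genotypes in high light, so such correlations can arise without pairing and do not establish it.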

Additional observations from a re-analysis of the deposited data

How the results depend on the processing

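All 10 members were called in both light responses under every alternative. In the interaction 1 was called by DESeq2 and 4 without the high-light replicate 3 libraries, and in hy5 against WT in high light 2 without them. In growth light, HSP17.6A in hy5 against WT gave 1 call, 0 in 1 fit of all 21 libraries and 0 to 1 with 1 library left out. K87K against hy5 gave 0 to 1 calls with 1 library left out. Library totals in place of TMM gave 5 calls in K87R against hy5, 1 in K87Q against K87R and 2 in K87R against WT. K87K against WT gave 1 call with no filter on low counts, 0 with all 21 libraries and 0 to 1 with 1 library left out. It gave 0 with only the 2 groups fitted, where HSP23.6 and HSP17.6A had too few counts to be tested. HSP26.5 in hy5 against WT in high light turned to log2 -0.065 with library totals. It ran from -0.26 (without WT replicate 2) to 1.78 (without WT replicate 3) with 1 library left out, and was below 0 without WT replicate 1 or hy5 replicate 2 as well. The cause was not tested. Promoters of 1 member held 3 units. With the replicate number as a block, hy5 against WT in high light gave 0 members among 29 genes called. Each light response gave 10 members, and the block changed no count of members in any contrast. Over all settings 172 counts kept within 1.5 times their value and 18 did not. For most members the low counts in growth light limit what could be seen there.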
